A study of Mus musculus with 24 samples.

Results

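The genes described here are the 19 Wnt ligands of the mouse and 12 of its secreted Wnt antagonists, 31 of the 22367 protein-coding genes in the annotation. They were taken by name as a family, and the rule uses no measured value. Other extracellular modifiers, among them *Notum*, *Sostdc1*, *Cer1* and *Igfbp4*, are counted with the rest of the pathway. Wnt ligands are secreted lipid-modified proteins that bind Frizzled receptors, and in the canonical branch they stabilise beta-catenin, which acts with TCF/LEF factors on target genes. The Sfrp proteins, Frzb and Wif1 bind the ligands themselves, whereas Dkk1 and sclerostin (*Sost*) bind the LRP co-receptors. In the fetal gonad, canonical Wnt signalling driven by *Wnt4* and *Rspo1* belongs to the ovarian pathway and is held down in the testis.

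Each gene was described by trimethylation of histone H3 at lysine 4 (H3K4me3), found at active and poised promoters, and at lysine 27 (H3K27me3), laid down by Polycomb repressive complex 2. The study asked which marks the supporting cells of the gonad carry before and after they commit to a testicular or ovarian fate. Cells came from C57BL/6 x CD1 embryos with no mutant allele, and each population was sorted by a fluorescent reporter from pooled gonads. XY and XX progenitor cells were SF1-eGFP cells of E10.5 gonads, and SF1 (*Nr5a1*) is expressed in somatic cells of the gonadal primordium at large. Sertoli cells were Sox9-CFP cells of E13.5 XY gonads. Pregranulosa cells (named granulosa in the labels) were TESM-CFP cells of E13.5 XX gonads, a reporter driven by a mutant form of a *Sox9* enhancer (TESCO). Sex and reporter cannot be told apart at E13.5. Stage and reporter cannot be told apart either, because SF1-eGFP was used at E10.5 only. Differences between stages below are therefore also differences between sorted populations. H3, H3K4me3 and H3K27me3 were each profiled by ChIP-seq in 2 replicates of the 4 populations, 24 samples in all. The authors deposited 1 list of peaks per mark and population, made from both replicates together according to the series description. The file headers show this for the 4 progenitor lists only, and the methods of the study describe peak calls on each replicate.

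A list says where a mark was called over the H3 control and carries no level, so a gene was marked or not, over a number of bases. There is no spread between replicates in a pooled list, and no test between populations was possible. The promoter was the window of 2 kb on each side of the transcription start site (TSS), 4001 bp wide, and it was called when a region of joined peaks overlapped it by at least 1 bp. A promoter with both marks is called bivalent. The H3K4me3 lists rested on 10162534 tags (XY progenitor), 49254553 (XX progenitor) and 31104760 (Sertoli), and the H3K27me3 lists on 6470151, 33185400 and 44446456 in the same order. The depth of the pregranulosa lists is unknown. Exact (Clopper-Pearson) 95% binomial intervals are given for shares of members and cover counting error only. They treat members as independent, which neighbours that share a region are not.

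The labels were read against genes that define each cell type. All 7 Sertoli markers (*Sox9*, *Amh*, *Dhh*, *Dmrt1*, *Sox8*, *Fgf9* and *Ptgds*) had H3K4me3 without H3K27me3 in Sertoli cells. Of 7 pregranulosa markers, *Wnt4*, *Rspo1* and *Bmp2* had H3K4me3 without H3K27me3 in pregranulosa cells, while *Foxl2*, *Fst*, *Irx3* and *Lef1* had both marks there. All 7 had both marks in the other 3 populations. All 5 progenitor and supporting cell markers (*Nr5a1*, *Wt1*, *Gata4*, *Emx2* and *Lhx9*) had both marks in both progenitor populations. In Sertoli cells *Emx2* and *Lhx9* still had both, and in pregranulosa cells all 5 had H3K4me3 alone. H3K4me3 was called at 2, 3, 4 and 3 of 5 germ cell markers in XY progenitor, XX progenitor, Sertoli and pregranulosa cells, at 1, 1, 1 and 2 of 5 endothelial markers, and at 1, 1, 1 and 2 of 4 blood markers. It was called at 4, 6, 5 and 6 of 7 interstitial and Leydig markers and at all 3 mesonephric duct markers in each list. Some of these promoters also had H3K27me3. Both marks were called at 1, 2, 3 and 1 germ cell markers in the same order, at 1 endothelial marker in each list and at no blood marker. They were called at 3 interstitial and Leydig markers and at all 3 mesonephric duct markers in each list. The part of other cells in the calls below was not tested. H3K27me3 lay at 70.1% and 60.8% of chromosome X promoters in XX progenitor and pregranulosa cells, against 9.98% and 8.69% in XY progenitor and Sertoli cells. All 31 members are autosomal.

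The promoters of 4 ligands are shown because they are the only members at which the H3K27me3 call differed between populations. The choice of *Wnt6* and *Wnt8b* beside *Wnt4* and *Wnt5b* was made after the values were seen. The sequences run 5′ to 3′ on the strand of the gene up to the RefSeq start (for *Wnt4* to the annotated TSS) and come from the RefSeq promoter table (GRCm38.p6), which held 23 of the 31 members. Each was placed on mm9 by exact match and lies upstream of the gene in no annotated exon. Capitals mark CpG dinucleotides.
Wnt6, chr1:74818216-74818465, plus strand: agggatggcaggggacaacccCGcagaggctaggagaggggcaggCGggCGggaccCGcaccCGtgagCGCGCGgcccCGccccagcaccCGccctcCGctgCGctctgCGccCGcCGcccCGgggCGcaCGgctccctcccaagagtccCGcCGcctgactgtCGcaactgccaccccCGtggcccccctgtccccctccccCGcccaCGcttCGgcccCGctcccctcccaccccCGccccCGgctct
Wnt4, chr4:136833300-136833403, plus strand: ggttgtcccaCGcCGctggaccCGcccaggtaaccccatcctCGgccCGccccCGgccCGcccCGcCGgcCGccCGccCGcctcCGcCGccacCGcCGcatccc
Wnt5b, chr6:119494366-119494615, minus strand: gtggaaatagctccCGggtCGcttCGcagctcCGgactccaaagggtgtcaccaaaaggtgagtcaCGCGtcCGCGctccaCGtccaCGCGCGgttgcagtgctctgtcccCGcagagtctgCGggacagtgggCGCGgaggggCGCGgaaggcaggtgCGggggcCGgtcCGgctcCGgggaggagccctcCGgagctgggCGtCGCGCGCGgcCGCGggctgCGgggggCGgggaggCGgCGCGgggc
Wnt8b, chr19:44567712-44567961, plus strand: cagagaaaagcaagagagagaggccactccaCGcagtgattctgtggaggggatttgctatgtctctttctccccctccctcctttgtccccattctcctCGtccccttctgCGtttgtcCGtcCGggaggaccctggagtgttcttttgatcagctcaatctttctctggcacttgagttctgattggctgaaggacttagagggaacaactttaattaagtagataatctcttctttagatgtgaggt
The *Wnt6*, *Wnt5b* and *Wnt8b* stretches of 250 bases hold 28, 35 and 5 CpG, and the *Wnt4* stretch of 104 bases holds 16. *Wnt8b* is thus the poorest of the 4 in CpG, and the only 1 of them without H3K4me3 within 2 kb in every list.

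Nearly all 31 members were bivalent before sex determination. In both XY and XX progenitor cells, 29 of 31 members (93.5%, interval 78.6 to 99.2%) had both marks, and the other two, *Wnt8b* and *Dkk4*, had neither. Among all protein-coding genes, 20.4% (XY) and 22.4% (XX) of promoters were bivalent. H3K4me3 was called at 64.2% and 66.0% of all promoters in these populations, and H3K27me3 at 23.0% and 24.8%. On the autosomes alone, H3K27me3 was called at 23.6% of promoters in XY and 22.8% in XX progenitor cells.

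At E13.5, Sertoli cells had 24 bivalent members (77.4%, interval 58.9 to 90.4%) where 18.7% of all genes were bivalent. H3K4me3 was called at 25 members (64.9% of all genes) and H3K27me3 at 29 (23.5% of all genes). Pregranulosa cells had 26 bivalent members (83.9%, interval 66.3 to 94.5%) where 20.4% of all genes were bivalent. There, H3K4me3 was called at 29 members (66.3% of all genes) and H3K27me3 at 27 (23.7% of all genes). The members that were not bivalent at E13.5 were of different kinds in the 2 populations. In Sertoli cells *Wnt1*, *Wnt3a*, *Wnt8b*, *Wnt10a* and *Sost* had H3K27me3 alone and *Wnt6* had H3K4me3 alone. In pregranulosa cells *Wnt4*, *Wnt5b* and *Wnt6* had H3K4me3 alone and *Wnt8b* had H3K27me3 alone. *Dkk4* had neither mark in any list.

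**Figure D1:**
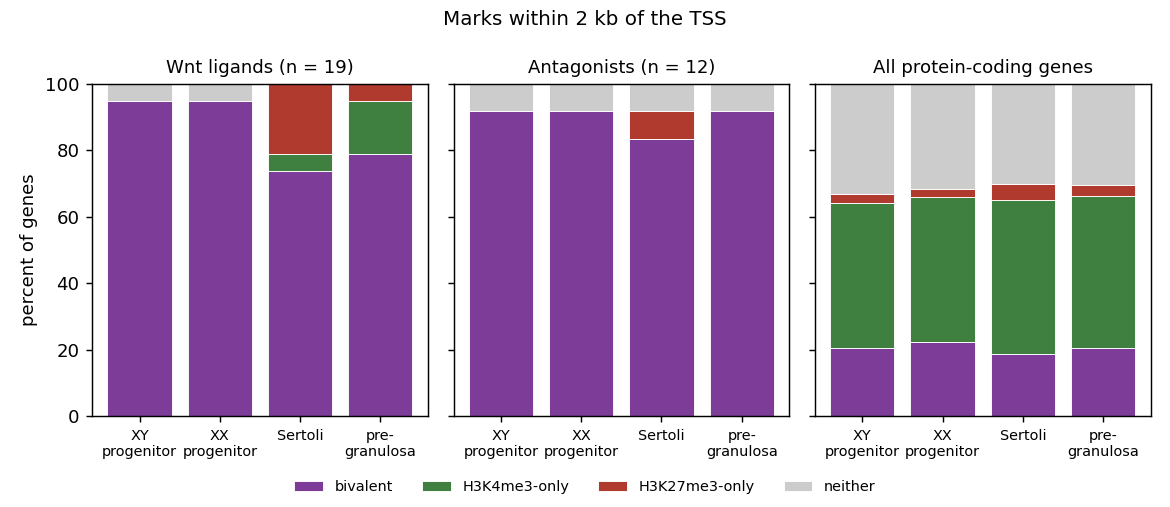
Percent of genes in each promoter state by population, for the 19 ligands, the 12 antagonists and all 22367 protein-coding genes. Bars are stacked to 100 percent. Bivalent promoters make up 73.7 to 94.7% of ligands and 83.3 to 91.7% of antagonists, against 18.7 to 22.4% of all genes.

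Over the 4 lists, 22 of 31 members (71.0%) were bivalent in every population, against 13.6% of all genes. These were 12 ligands (*Wnt2*, *Wnt2b*, *Wnt3*, *Wnt5a*, *Wnt7a*, *Wnt7b*, *Wnt8a*, *Wnt9a*, *Wnt9b*, *Wnt10b*, *Wnt11* and *Wnt16*) and 10 antagonists (*Dkk1*, *Dkk2*, *Dkk3*, *Dkkl1*, *Sfrp1*, *Sfrp2*, *Sfrp4*, *Sfrp5*, *Frzb* and *Wif1*). No member kept H3K4me3 alone in all 4 lists, the state of 36.7% of all genes. The H3K27me3 call differed between populations at 4 members (12.9%, against 16.9% of all genes), and all 4 were ligands. The H3K4me3 call differed at 4 others (12.9%, against 7.43% of all genes), 3 ligands and *Sost*.

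**Figure D2:**
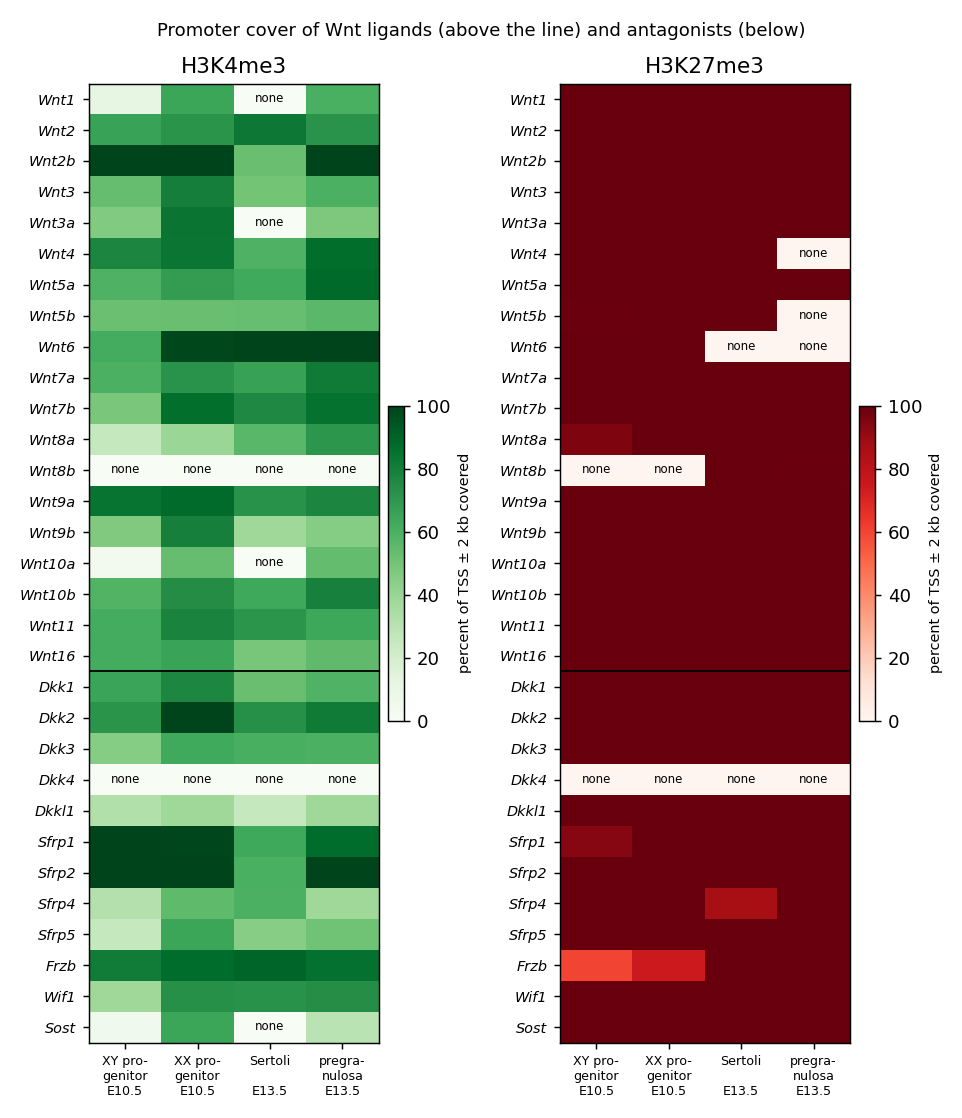
Percent of the TSS ± 2 kb window covered by H3K4me3 (left, green) and H3K27me3 (right, red) for each member and population, with "none" where no region reached the window. H3K27me3 covers the whole window at 25, 28, 28 and 26 members, from left to right, with part cover at *Wnt8a*, *Sfrp1*, *Sfrp4* and *Frzb* visible as lighter cells. H3K4me3 covers a part of most windows.

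*Wnt4*, the ligand required for ovarian development, lies on chromosome 4 from 136833404 to 136855641 on the plus strand. H3K27me3 covered the whole 4001 bp window in all populations but pregranulosa cells, where it covered none. The region over the TSS was 10139, 11841 and 11389 bp wide in the first 3 populations, and in pregranulosa cells the nearest H3K27me3 region lay 87254 bp away. The covered share of the gene body was 25.1% in XY progenitor, 32.3% in XX progenitor, 22.6% in Sertoli and 0% in pregranulosa cells. H3K4me3 was called over the TSS in all 4, in a region of 1725, 3840, 2374 and 9098 bp in XY progenitor, XX progenitor, Sertoli and pregranulosa cells. Pregranulosa cells thus had the widest H3K4me3 region and no H3K27me3, while Sertoli cells kept the state of the progenitors.

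*Wnt5b*, a close paralogue of *Wnt5a*, lies on chromosome 6 from 119382549 to 119494336 on the minus strand. H3K27me3 covered 3957 bp of its window in XY progenitor cells, 4001 bp in XX progenitor and Sertoli cells and none in pregranulosa cells. The regions were 5001, 7929 and 8777 bp wide, the first being the narrowest width that an H3K27me3 call can have in the lists with a header. In pregranulosa cells the nearest region was 206324 bp away. H3K4me3 covered 2085 to 2239 bp of the window in the 4 lists, a narrow range. The pattern over populations was that of *Wnt4*, with narrower H3K27me3 domains.

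*Wnt6* lies on chromosome 1 from 74818466 to 74831893 on the plus strand, and the TSS of *Wnt10a* follows 19624 bp downstream on the same strand. In both progenitor populations a single H3K27me3 region of 54071 bp (XY) and 54021 bp (XX) spanned both genes. At E13.5 no H3K27me3 was called over any part of *Wnt6* in either sex, where it had covered 100% of the gene body. The region began 14325 bp downstream of the *Wnt6* TSS in Sertoli cells and 16665 bp downstream in pregranulosa cells. The remaining region, 29352 bp wide in Sertoli and 26017 bp wide in pregranulosa cells, still covered 100% of *Wnt10a*. H3K4me3 at *Wnt6* covered 2479 bp of the window in XY progenitor and 3949 bp in XX progenitor cells and all 4001 bp at E13.5. H3K4me3 covered 59.4 and 58.8% of the *Wnt6* gene body at E10.5, and 96.6% in Sertoli and 99.0% in pregranulosa cells. *Wnt6* is therefore the member at which both sexes moved alike from both marks to H3K4me3 alone, while *Wnt10a* stayed covered by H3K27me3.

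*Wnt8b*, known best from the developing forebrain, lies on chromosome 19 from 44567962 to 44588763 on the plus strand. Its promoter window had no H3K27me3 in either progenitor population, 4001 bp of it in Sertoli cells and 3962 bp in pregranulosa cells. The mark was present within the gene at E10.5, where it began 13540 bp downstream of the TSS in XY and 12338 bp in XX cells and covered 34.9 and 40.7% of the gene body. It covered 100% in Sertoli cells, in a region of 31091 bp, and 70.9% in pregranulosa cells, in separate regions of which the one at the TSS was 7592 bp wide. The nearest H3K4me3 region was 4545 to 16615 bp from the TSS in the 4 lists.

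**Figure D3:**
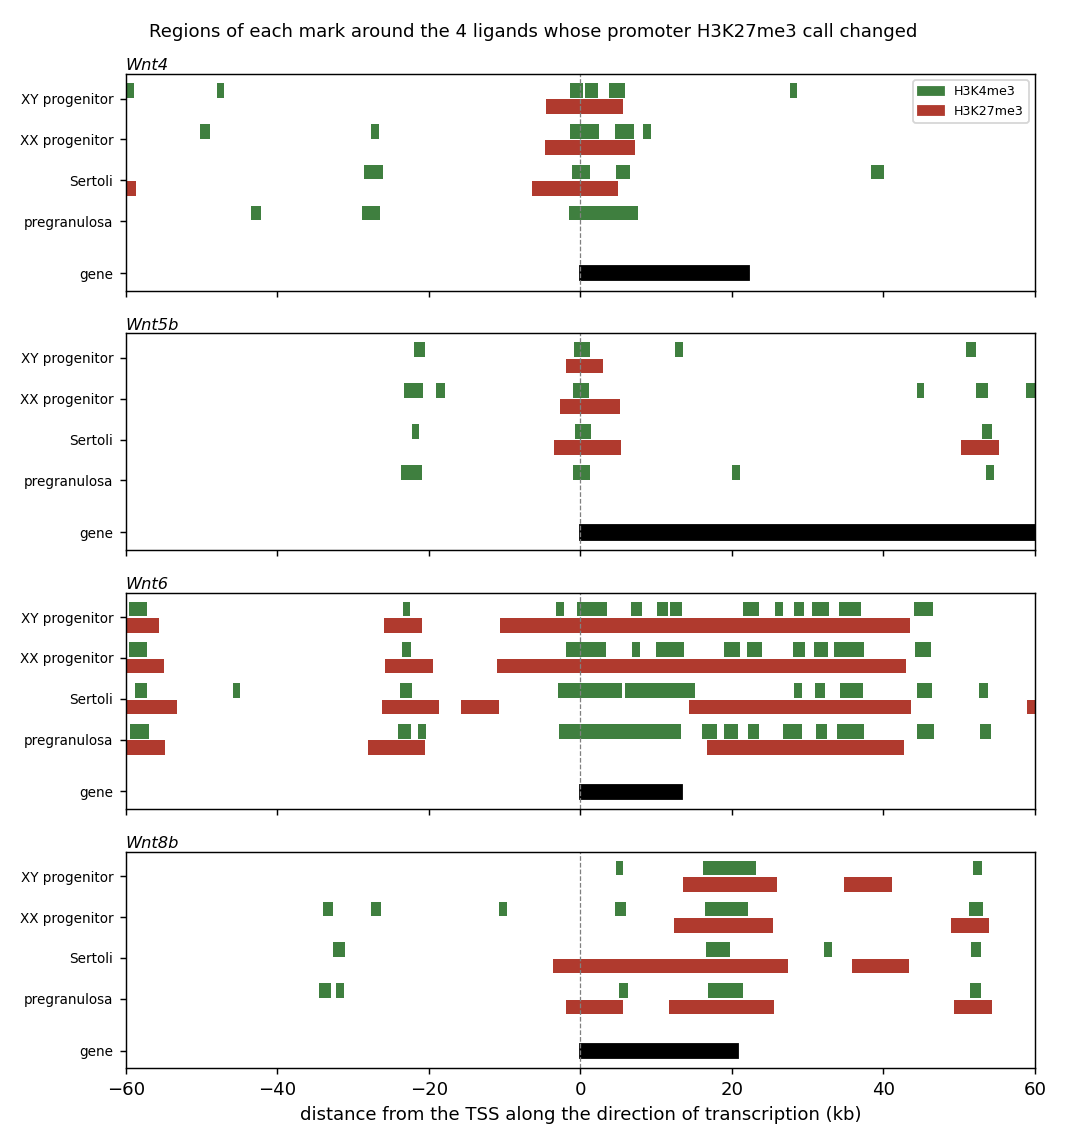
Regions of H3K4me3 (green) and H3K27me3 (red) in each population within 60 kb of the TSS of *Wnt4*, *Wnt5b*, *Wnt6* and *Wnt8b*, with distance along the direction of transcription in kb and the gene drawn in black. The H3K27me3 region over the TSS is missing in pregranulosa cells for *Wnt4* and *Wnt5b* and in both E13.5 populations for *Wnt6*, where it starts 14325 or 16665 bp downstream. At *Wnt8b* it reaches the TSS at E13.5 only.

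Counted over the family, 1 of 29 members with promoter H3K27me3 in XY progenitor cells (*Wnt6*) was without it in Sertoli cells, against 22.6% of all genes with the mark. Of the 2 members without it, 1 (*Wnt8b*) had gained the call, against 7.42% of all genes without it. From XX progenitor to pregranulosa cells, 3 of 29 (*Wnt4*, *Wnt5b* and *Wnt6*; 10.3%) were without the call, against 17.9% of all genes. *Wnt8b* had again gained it, against 4.38% of all genes. Between the E13.5 populations, 2 of 29 members marked in Sertoli cells (*Wnt4* and *Wnt5b*; 6.90%) were not marked in pregranulosa cells, against 20.8% of all genes. No member was marked in pregranulosa and not in Sertoli cells, the pattern of 21.2% of all genes with the mark in pregranulosa cells and of 13.4% of those on autosomes, where all members lie. Between the progenitor populations no member differed, where 9.70% of genes marked in XY cells were not marked in XX cells and 16.1% of genes marked in XX cells were not marked in XY cells. On the autosomes these shares were 9.84% and 6.78%. With the widest 75% of regions, by contrast, 2 members (*Dkk3* and *Sfrp4*) were marked in XY and not XX cells and 2 (*Sfrp1* and *Wnt5b*) in XX and not XY cells. The H3K27me3 calls of *Wnt4*, *Wnt6* and *Wnt8b* were the same under every alternative run.

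*Wnt1*, *Wnt3a*, *Wnt10a* and *Sost* had no H3K4me3 within 2 kb in Sertoli cells and kept H3K27me3 over the whole window in every list. These 4 of 29 members with H3K4me3 in XY progenitor cells (13.8%) stand beside 3.20% of all genes. In the XX lineage no member with H3K4me3 in progenitors was without it in pregranulosa cells, where 2.15% of all genes were. The same 4 of 29 members marked in pregranulosa cells (13.8%) were not marked in Sertoli cells, against 3.82% of all genes.

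*Wnt1*, a signal of the midbrain and neural crest on chromosome 15 from 98620288 to 98624268, had H3K4me3 over 434 bp of the window in XY progenitor, 2594 bp in XX progenitor, 0 bp in Sertoli and 2419 bp in pregranulosa cells. *Wnt3a*, which acts in the tail bud (chromosome 11 from 59061535 to 59104254), had 1856, 3359, 0 and 1898 bp in the same order, and the nearest H3K4me3 region in Sertoli cells was 15060 bp from its TSS. *Wnt10a*, known from teeth and hair follicles (chromosome 1 from 74838090 to 74850753), had 132, 2134, 0 and 2151 bp. *Sost*, which encodes the bone-derived inhibitor sclerostin (chromosome 11 from 101823772 to 101828329), had 179, 2592, 0 and 1169 bp. All but *Wnt3a* were thus covered only at the edge of the window in XY progenitor cells, and with an overlap of at least 500 bp, or within 1 kb of the TSS, only *Wnt3a* was marked in XY progenitor and not in Sertoli cells. At *Wnt1* and *Sost*, H3K4me3 in Sertoli cells lay just beyond the window. The nearest region was 2410 bp from the *Wnt1* TSS, against 1567 bp in XY progenitor cells. H3K4me3 covered 31.7% of the *Wnt1* gene body in Sertoli and 60.6% in XY progenitor cells. At *Sost* a region ran from 2188 to 3800 bp downstream of the TSS in Sertoli cells, and from 1822 to 3771 bp in XY progenitor cells. *Wnt1* has another annotated start, at which H3K4me3 was called within 2 kb in Sertoli cells. The XY progenitor H3K4me3 list was the shallowest with a known depth, and the part of depth in these differences was not tested.

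Among the members with H3K4me3, the mark covered a median of 2324 bp of the window in XY progenitor, 2984 bp in XX progenitor, 2427 bp in Sertoli and 2814 bp in pregranulosa cells. The medians over all marked genes were 2195, 2803, 2531 and 2721 bp. H3K4me3 covered more bases in XX than in XY progenitor cells at 26 of 29 members (89.7%), as it did at 85.2% of all marked genes. It covered more in pregranulosa than in Sertoli cells at 23 of 29 members (79.3%) and at 65.4% of all marked genes. The XX progenitor list rested on 49254553 tags and the XY list on 10162534. At the TSS base itself, H3K4me3 was called at 23 members in XY progenitor and in Sertoli cells and at 29 in XX progenitor and pregranulosa cells. Over all genes the shares were 59.2% in XY progenitor, 62.8% in XX progenitor, 61.1% in Sertoli and 62.5% in pregranulosa cells.

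*Dkk4*, a Dickkopf antagonist of the LRP co-receptors on chromosome 8 from 23734515 to 23738008, was the member with neither mark anywhere. Its nearest H3K4me3 region was 25560 bp away in XY progenitor cells and 6187 to 6517 bp away in the other lists. The nearest H3K27me3 region was 4508 and 4865 bp away at E10.5, and 184779 bp (Sertoli) and 177909 bp (pregranulosa) away at E13.5. Among all genes, 26.2% had neither mark in any list.

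*Wnt2b* and *Wnt5a*, for which the study designed ChIP-qPCR primers, were bivalent in all lists. *Wnt2b*, a canonical ligand close to *Wnt2* (chromosome 3 from 104747723 to 104764627, minus strand), had H3K27me3 over its whole window, in regions of 11799, 11444, 12727 and 6302 bp in XY progenitor, XX progenitor, Sertoli and pregranulosa cells. H3K4me3 covered its whole window in 3 populations and 2109 bp in Sertoli cells. *Wnt5a*, the best-known non-canonical ligand (chromosome 14 from 29317936 to 29340633, plus strand), had H3K27me3 regions of 15643, 15820, 25023 and 18730 bp and H3K4me3 over 2363, 2723, 2503 and 3518 bp of the window. At *Wnt2b* the H3K27me3 region was narrowest in pregranulosa cells. With the widest 75% of regions, or with lists cut to equal numbers of regions, the H3K27me3 call of *Wnt2b* was lost in pregranulosa cells, which left H3K4me3 alone there as at *Wnt4*. The calls of *Wnt5a* did not change under these alternatives.

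The primers, forward first, are shown because each pair samples 1 short stretch of these promoters. All lie upstream of the TSS in no annotated gene.
Wnt2b forward: gcagtcagctaaatggagcaga
Wnt2b reverse: agctgctggttccacttgcttc
Wnt4 forward: cgtgggagaagtaataaaagaa
Wnt4 reverse: cttaggaactggaaggctgtg
Wnt5a forward: gcactaacccatgagacattg
Wnt5a reverse: tgtgaagtttaggtgaaccg
Each pair matched mm9 once on its chromosome. The *Wnt4* amplicon of 100 bp (chr4:136832568-136832667) begins 737 bp upstream of the TSS and lay inside H3K27me3 regions in every list but that of pregranulosa cells, and inside H3K4me3 regions in all 4. The *Wnt2b* amplicon of 194 bp (chr3:104766492-104766685) ends 2058 bp upstream, so part of it lies beyond the window, and it was inside H3K27me3 in all 4 lists and inside H3K4me3 in all but Sertoli cells. The *Wnt5a* amplicon of 165 bp (chr14:29317051-29317215) was inside H3K27me3 in all 4 lists. H3K4me3 covered it whole in pregranulosa cells, in part in XX progenitor cells and not in XY progenitor or Sertoli cells.

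The remaining ligands differed in how far H3K27me3 spread beyond the window. Over the 29 members marked at the TSS in XY progenitor cells, the region had a median width of 11799 bp. The median was 15820 bp for 29 members in XX progenitor cells, 21626 bp for 29 in Sertoli cells and 15706 bp for 27 in pregranulosa cells. The medians over all genes marked at the TSS were 8382, 10052, 11861 and 11466 bp. Ligands had wider regions than antagonists in each list, with medians of 15584, 18117, 27315 and 20965 bp against 7869, 7593, 16609 and 11292 bp. The widest region over the TSS of a member was the 99156 bp at *Sost* in pregranulosa cells, where it also held the TSS of *Meox1*. The *Sost* region was 35549 bp wide in XY progenitor, 21574 bp in XX progenitor and 37520 bp in Sertoli cells. Further H3K27me3 regions lay downstream in those lists. In Sertoli cells the region at the TSS ended 32405 bp downstream and the next ran from 36202 to 100375 bp. The pregranulosa region ended 94041 bp downstream, so the marked stretches were more alike than the widths at the TSS. The next widest region over a TSS, 91001 bp in Sertoli cells, held *Wnt3* and *Wnt9b* together.

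Some ligands are neighbours, and these share regions. *Wnt1* and *Wnt10b* lie on opposite strands with 11707 bp between their TSSs, and a single H3K27me3 region of 49820, 50865, 44761 and 45711 bp covered both in XY progenitor, XX progenitor, Sertoli and pregranulosa cells. It also held the TSS of *Ddn* in every list and that of *Arf3* at E10.5. *Wnt3a* and *Wnt9a*, 16176 bp apart on chromosome 11, shared a region of 30629 bp in XX progenitor, 40967 bp in Sertoli and 35288 bp in pregranulosa cells. In XY progenitor cells they had separate regions of 15525 and 9611 bp, the first ending at 59114332 and the second starting at 59114827. *Wnt3*, needed for gastrulation, and *Wnt9b*, an inducer of kidney tubules, are 24329 bp apart on the same chromosome and had separate regions in every list but Sertoli. The *Wnt3* region was 35847 bp wide in XY progenitor, 18779 bp in XX progenitor and 24199 bp in pregranulosa cells, and the *Wnt9b* region 16444, 18103 and 19726 bp. In these lists the *Wnt9b* region ended at 103619760, 103621614 and 103620968, and the *Wnt3* region began at 103624356, 103625803 and 103622110. Whether a pair shared a region or had separate ones thus rests on gaps that are narrow beside the regions. Members of a pair are thus not independent observations.

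The median share of the gene body covered by H3K27me3 was higher at E13.5 than at E10.5, and highest in Sertoli cells. The percent of the gene body covered had a median over the 31 members of 34.9% in XY progenitor, 38.6% in XX progenitor, 70.0% in Sertoli and 50.1% in pregranulosa cells. Among genes with promoter H3K27me3 the median was 35.2, 38.6, 77.9 and 61.2% for members and 19.3, 27.1, 38.9 and 34.6% for all genes. For autosomal genes it was 20.1% in XX progenitor and 26.9% in pregranulosa cells. From XY progenitor to Sertoli cells the covered share was at least 10 percentage points higher at 12 of 28 members marked in both (42.9%, against 28.7% of all genes) and at least 10 points lower at 2 (*Sfrp4* and *Wif1*; 7.14%, against 5.57% of all genes). From XX progenitor to pregranulosa cells it was higher by that much at 9 of 26 members marked in both (34.6%, against 13.3% of all genes). It was lower at none of these 26, where 9.82% of all genes and 6.56% of autosomal genes were lower. It was higher in Sertoli than in pregranulosa cells at 12 of 27 (44.4%, against 20.7% of all genes) and lower at 3 (*Sfrp4*, *Frzb* and *Wif1*; 11.1%, against 7.60% of all genes). These counts leave out members whose promoter call was lost or gained. Among those, *Wnt6* went from 100 to 0% in both lineages. From XX progenitor to pregranulosa cells *Wnt4* went from 32.3 to 0% and *Wnt5b* from 4.72 to 0%. *Wnt8b* rose from 34.9 to 100% in the XY and from 40.7 to 70.9% in the XX lineage. The Sertoli H3K27me3 list had 44446456 tags and the XY progenitor list 6470151. With the deeper XX progenitor list (33185400 tags) in its place, 14 of 28 members (against 26.6% of all genes) were at least 10 points higher in Sertoli cells, and the part of depth was not tested.

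**Figure D4:**
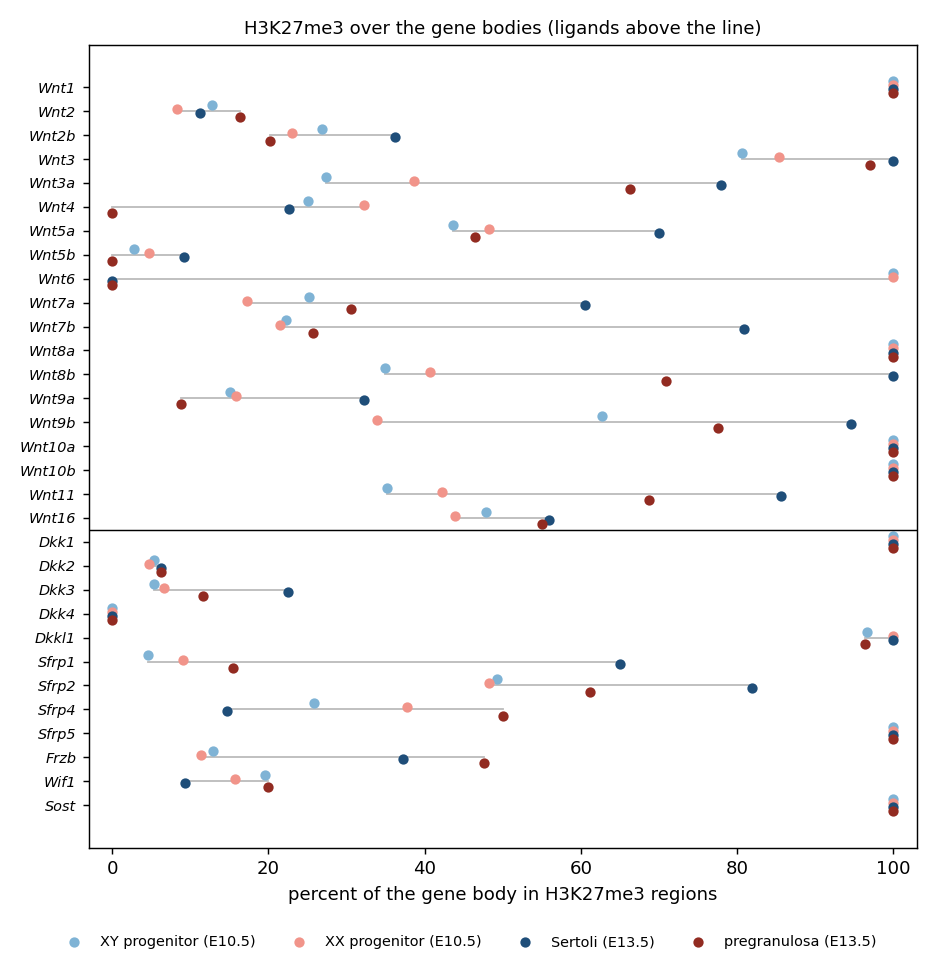
Percent of each gene body covered by H3K27me3 regions, with 1 point per population and a grey line from the lowest to the highest. Sertoli cells (dark blue) lie to the right of the other 3 at *Wnt7a*, *Wnt7b*, *Wnt11*, *Sfrp1* and *Sfrp2*, among others. They lie to the left at *Sfrp4* and *Wif1*. The bodies of *Wnt1*, *Wnt8a*, *Wnt10a*, *Wnt10b*, *Dkk1*, *Sfrp5* and *Sost* are covered at 100% throughout.

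Among ligands, *Wnt7b*, a lung and placental signal, had 22.2, 21.5, 80.9 and 25.7% of its body covered in XY progenitor, XX progenitor, Sertoli and pregranulosa cells. Only the Sertoli value stood apart. *Wnt7a*, which acts in Müllerian duct development, had 25.2, 17.3, 60.6 and 30.6%, again highest in Sertoli cells. *Wnt11* had 35.2, 42.2, 85.6 and 68.7%, higher at E13.5 in both sexes. *Wnt3a* had 27.4, 38.6, 77.9 and 66.3%, and *Wnt9b* had 62.7, 33.9, 94.6 and 77.6%. *Wnt5a* had 43.7, 48.2, 70.0 and 46.4%, with pregranulosa cells between the progenitor values. *Wnt3* had 80.6, 85.4, 100 and 97.1%. *Wnt2b* had 26.8, 23.0, 36.2 and 20.2%. The other ligands marked in every list ranged from 8.30% (*Wnt2* in XX progenitor cells) to 55.9% (*Wnt16* in Sertoli cells) or were covered at 100% in all lists (*Wnt1*, *Wnt8a*, *Wnt10a* and *Wnt10b*).

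Of the 12 antagonists, 11 had promoter H3K27me3 in every list. With the widest 75% of regions the call was lost at *Frzb* in both progenitor lists, at *Sfrp1* in XY progenitor cells, at *Dkk3* in XX progenitor cells and at *Sfrp4* in XX progenitor and Sertoli cells, the last also with lists cut to equal numbers of regions. The domains differed in width between populations. *Sfrp1*, which binds Wnt ligands through a Frizzled-like domain, had an H3K27me3 region of 5001 bp in XY progenitor, 6266 bp in XX progenitor, 55380 bp in Sertoli and 11292 bp in pregranulosa cells. H3K27me3 covered 4.57, 9.07, 65.0 and 15.5% of its body in that order, in Sertoli cells with a further region at the end of the gene, and Sertoli cells were far above the rest. Its H3K4me3 cover of the window was 3996 and 3956 bp at E10.5, 2543 bp in Sertoli and 3489 bp in pregranulosa cells. *Sfrp2*, its near relative, had 49.3, 48.2, 81.9 and 61.2% of the body under H3K27me3, and H3K4me3 covered its whole window in all but Sertoli cells (2422 bp).

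*Dkk3*, a divergent Dickkopf member, had 5.29, 6.68, 22.5 and 11.6% of its body covered and a region of 6279, 5001, 19662 and 8851 bp. *Dkkl1*, expressed in the male germ line, had a region of 54761 bp in Sertoli cells and of 7656 to 8557 bp in the others. The Sertoli region extended downstream over the TSSs of *Ccdc155*, *Pth2* and *Slc17a7*. *Frzb* had the least H3K27me3 in its window among bivalent members, 2399 bp in XY and 2982 bp in XX progenitor cells, with all 4001 bp covered at E13.5. Its body was covered at 12.9 and 11.3% at E10.5, 37.2% in Sertoli and 47.6% in pregranulosa cells.

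*Sfrp4* went the other way in the XY lineage, with 25.8% of its body covered in XY progenitor and 14.7% in Sertoli cells, and 37.7% in XX progenitor and 50.1% in pregranulosa cells. Its Sertoli region of 5001 bp was shifted upstream, so that 3452 bp of the window was covered. *Wif1*, which binds Wnt ligands directly, had 19.6, 15.7, 9.36 and 19.9%, lowest in Sertoli cells. *Dkk2* had 4.71 to 6.21% in the 4 lists, while *Dkk1*, *Sfrp5* and *Sost* were covered at 100% in all and *Dkkl1* at 96.4 to 100%.

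**Figure D5:**
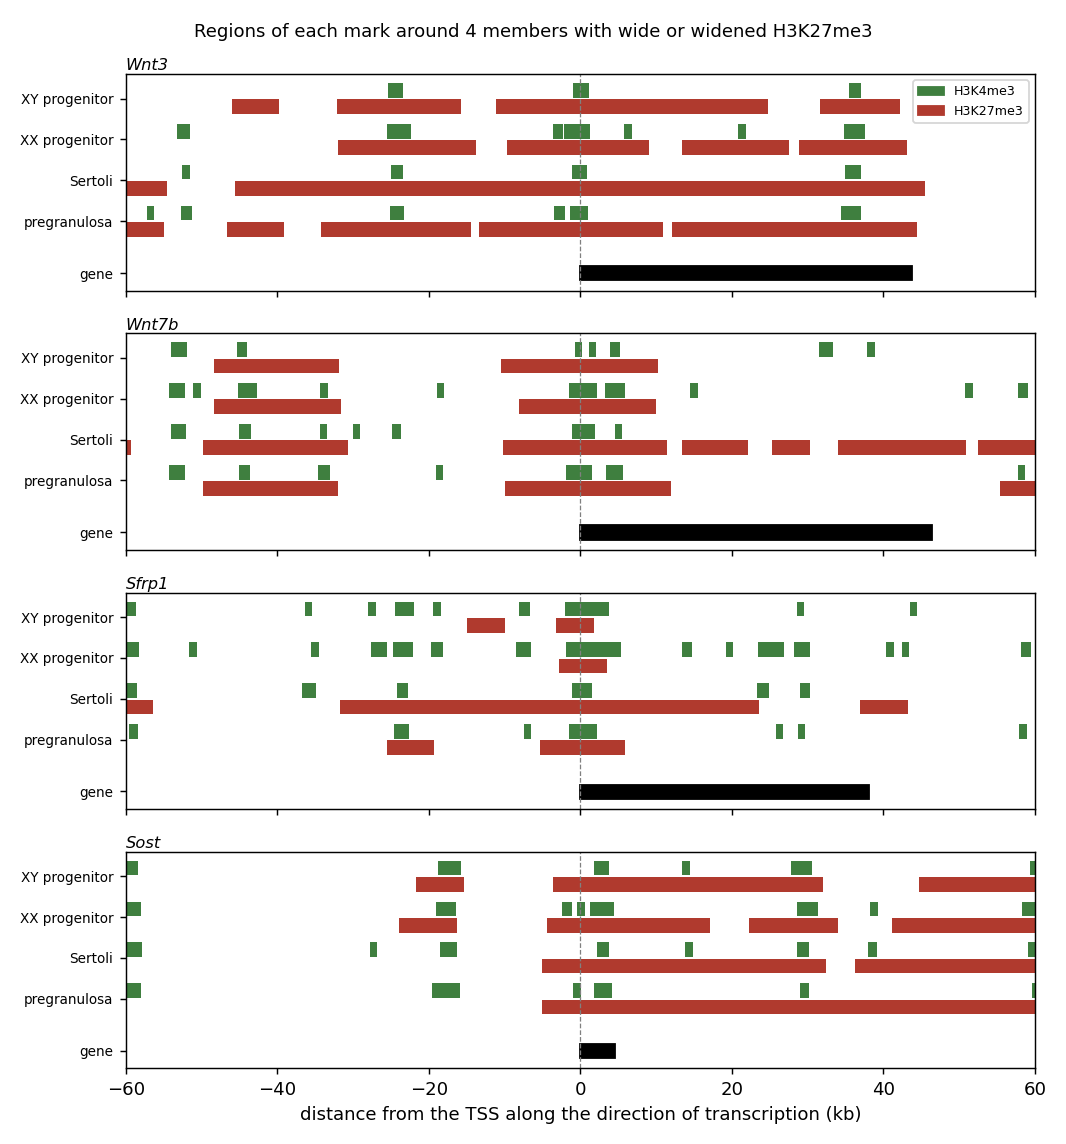
Regions of H3K4me3 (green) and H3K27me3 (red) within 60 kb of the TSS of *Wnt3*, *Wnt7b*, *Sfrp1* and *Sost*, drawn as in the map of the 4 changed ligands. In Sertoli cells a single region spans *Wnt3* and reaches upstream over *Wnt9b*, further regions cover the body of *Wnt7b*, and the *Sfrp1* region is 55380 bp wide. At *Sost* the widest region, 99156 bp, is that of pregranulosa cells and runs beyond the right edge. In Sertoli cells a further region, from 36202 to 100375 bp downstream, also runs beyond it.

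The promoters of the family were rich in CpG. Within 500 bp of the TSS the members held a median of 60.0 CpG, with a GC content of 62.0%, against 41.0 CpG and 54.7% over all genes. Bivalent genes of XY progenitor cells held a median of 58.0, those with H3K4me3 alone 62.0, those with H3K27me3 alone 17.0 and those with neither 9. The members with the fewest were *Dkk4* (17), *Sost* (18), *Wnt8a* (19) and *Wnt8b* (21). These include the 2 members with no H3K4me3 in any list and 1 without it in Sertoli cells, but *Wnt8a* was bivalent in every list. The other members without H3K4me3 in Sertoli cells held more CpG, with 37 at *Wnt10a*, 61 at *Wnt1* and 90 at *Wnt3a*. *Wnt4* (137), *Wnt9a* (131) and *Wnt5b* (130) had the most, and 99.2% of all genes had fewer than *Wnt4*. The TCF/LEF letters CTTTG followed by a pair of bases that are each A or T were sought on both strands. The RefSeq promoters searched ran from 250 bases before to 50 after the start. The letters occurred at 4 of 23 members (17.4%: *Wnt3*, *Wnt5b*, *Wnt11* and *Dkk1*) and in 16.9% of all 32851 promoters in the table. A member was counted if any of its promoters held them, so the first share is per gene and the second per promoter. *Wnt5b* has further promoters 77107 and 94932 bp downstream of the annotated TSS, and *Wnt11* has another 3733 bp downstream.

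The rest of the pathway is given by counts. Of 47 other genes, 26, 25, 26 and 23 were bivalent in XY progenitor, XX progenitor, Sertoli and pregranulosa cells, and 18, 20, 19 and 21 had H3K4me3 alone. Among 15 receptors H3K27me3 was called at 8, 6, 8 and 9, and all 15 had H3K4me3 in every list. Among 9 R-spondins, their Lgr receptors and the ligases *Znrf3* and *Rnf43*, H3K27me3 was called at 8, 8, 7 and 7. Among 9 genes of ligand secretion and extracellular modification it was called at 6, 6, 6 and 5, and among 14 genes of transduction and nuclear response at 5, 5, 5 and 3. The co-receptors *Lrp5* and *Lrp6*, the scaffold *Apc* and the 3 Dishevelled genes had no H3K27me3 in any list. *Ctnnb1*, the beta-catenin gene, had neither mark at its gene start but had H3K4me3 in all lists at an annotated start 4184 bp downstream.

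Several of these genes lost or gained the H3K27me3 call between stages. From XY progenitor to Sertoli cells 7 of 27 lost the call (*Fzd3*, *Fzd5*, *Fzd8*, *Fzd9*, *Znrf3*, *Kremen1* and *Nkd2*; 22.6% of all genes did) and 6 of 20 gained it (*Fzd2*, *Fzd4*, *Fzd7*, *Ror1*, *Igfbp4* and *Tcf7l1*; 7.42% of all genes). From XX progenitor to pregranulosa cells 5 of 25 lost it (*Fzd3*, *Rspo1*, *Kremen1*, *Axin2* and *Tcf7*; 17.9% of all genes) and 4 of 22 gained it (*Fzd1*, *Fzd4*, *Fzd7* and *Ror1*; 4.38% of all genes). *Rspo1*, whose product raises Wnt receptor levels, had H3K27me3 over 4001 bp of its window in the first 3 populations and none in pregranulosa cells, as *Wnt4* did. *Axin2*, a common target of beta-catenin, had 1010, 1361, 4001 and 0 bp. *Znrf3*, which removes Frizzled receptors from the membrane, had 2624 and 2800 bp at E10.5, none in Sertoli cells and 4001 bp in pregranulosa cells.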

How the data were processed

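Native chromatin of sorted cells was digested with micrococcal nuclease and immunoprecipitated with Drosophila carrier chromatin. Per the submitters' processing notes and the file headers, the authors used Trim Galore, Bowtie (mm9), SAMtools and HOMER, whose versions are not given in the sources used here. Peaks of 6 lists were called at a Poisson p-value of 0.0001 and 4-fold over H3 and over the surrounding region, in windows of 1000 bp (H3K4me3) or 5000 bp (H3K27me3). The tag directories of 4 lists are named as joined replicates, the series description gives pooling for all, and 2 lists (pregranulosa) have no header. The score column that the authors deposited with 6 lists is constant and was not used, so the lists give positions alone.

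Overlapping peaks were joined into regions. In the pregranulosa H3K27me3 list no peaks overlapped (12609 peaks, 12609 regions), and how they had been joined before deposit is not known. Gene starts and ends came from GENCODE M1 (NCBIM37, the same build as mm9), with chromosome M left out. The promoter was the gene start ± 2 kb, and the gene body ran from gene start to end. Intervals are exact binomial at 95%. No test between populations was run. Members and lists were chosen with earlier results of these data known. Values are given in full for members whose calls differ between populations, for those with primers, for the 3 with the widest H3K27me3 region and for those without marks. Other members named with values, in the gene body account, were named after their values were seen. Promoters and primers were placed by exact match. Alternatives changed the overlap, window, regions, joining or starts. Steps were tested on simulated data. The tools were bedtools 2.31.1, pysam 0.24.0, Python 3.11.15, matplotlib 3.10.9, SciPy 1.17.1 and NumPy 2.4.6.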

Additional observations from a re-analysis of the deposited data

Results flagged for a closer look

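The share of the gene body covered by H3K27me3 moved in opposite directions between E10.5 and E13.5 in the XY and XX lineages at 8 members, counting moves of at least 1 percentage point each way. The share of all genes that did the same was not counted, so the count is not read as a trait of the family. There is 1 pooled list per population, so the difference between lineages was not tested. *Wnt5a* had the largest such difference, 28.2 points, with 26.3 points more in Sertoli than in XY progenitor cells and a change of -1.87 points from XX progenitor to pregranulosa cells. *Wnt9a* differed by 24.1 points (17.1 against -6.99), *Wnt2b* by 12.3 points (9.46 against -2.87), *Wnt5b* by 11.2 points (6.49 against -4.72) and *Dkkl1* by 6.86 points (3.28 against -3.58). The opposite sign, less in Sertoli and more in pregranulosa cells, was found at *Sfrp4* (difference of -23.5 points, from -11.1 and 12.4), *Wif1* (-14.4 points, from -10.2 and 4.16) and *Wnt2* (-9.65 points, from -1.63 and 8.02). The Sertoli list had 44446456 H3K27me3 tags and the XY progenitor list 6470151, and the part of depth was not tested.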

How the results depend on the processing

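The counts of members with each mark, the bivalent counts and the gene body medians stayed within 1.5 times the reported value under every alternative run, as did 180 of 190 alternative values in all. The other 10 are counts of 5 or fewer. With the widest 75% of regions, members losing promoter H3K27me3 from XY progenitor to Sertoli cells went from 1 to 2 and those gaining it from 1 to 4. Those gaining it in pregranulosa cells went from 1 to 4, those marked in pregranulosa and not Sertoli cells from 0 to 1, and those marked in XY and not XX or in XX and not XY progenitor cells from 0 to 2 each. With lists of a mark cut to equal numbers of widest regions, losses to Sertoli cells were 2 and members marked in pregranulosa and not Sertoli cells 1. The count marked with H3K4me3 in XY progenitor and not Sertoli cells went from 4 to 1 with an overlap of 500 bp and to 1 within 1 kb of the TSS. The narrow regions are those involved, among them *Wnt2b* in pregranulosa cells, *Sfrp4* in Sertoli cells and *Frzb*, *Sfrp1*, *Dkk3* and *Wnt5b* at E10.5. The alternatives for gene body counts, and the XX progenitor list in place of the XY list, were chosen after the data were seen. No paired analysis was possible because there is 1 list per mark and population, and for the same reason no replicate could be left out. A missing call does not show absence of a mark, and the depth of the pregranulosa lists is unknown.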
